A study of Mus musculus with 24 samples.

Results

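The 84 cytosolic ribosomal protein genes described here were all protein-coding genes of the mouse RefSeq annotation (assembly GRCm38.p6, also called mm10) whose symbols follow the Rpl, Rps, Rplp or Rpsa pattern, out of 21887 protein-coding genes on chromosomes 1 to 19, X and Y. They comprised 52 genes for the large subunit and 32 for the small subunit. The rule reads symbols and no measured value, although the gene group was picked for description with earlier results of these data known. The cells were N1E115, a mouse neuroblastoma line, labelled as positive for NOS1 (neuronal nitric oxide synthase) at both oxygen levels. They had been kept for 3 days at 4% O2 (called hypoxia by the submitters) or at 20% O2 (called normoxia). Chromatin immunoprecipitation followed by sequencing gave peak lists for 5 histone marks, with 2 libraries per mark and oxygen level, and 4 input samples served as controls for the peak calls. The first library of each pair is called set 1 and the second set 2. The line comes from 1 tumour, and the labels do not say that the libraries of a group were separate cultures, so the spread between them may be technical.

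Ribosomal proteins are assembled with ribosomal RNA in the nucleolus into the small subunit, which decodes the mRNA, and the large subunit, which joins amino acids. Their genes are short and transcribed in nearly every cell, and their mRNAs typically begin with a run of pyrimidines, the terminal oligopyrimidine (TOP) start, through which mTOR signalling and the protein LARP1 set their translation. H3K4me3 and H3K27ac mark active promoters, H3K4me1 marks enhancers and the flanks of promoters, H3K36me3 follows elongating RNA polymerase over gene bodies, and H3K27me3 is laid down by Polycomb over silent genes.

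The stretches shown first are those of ribosomal protein genes with the clearest H3K27ac differences over the gene and 10 kb on either side. They were chosen by this span and not by the start, so the difference can lie elsewhere in it, as for Rpl14 and Rps25 (below). Each run is 120 bases, 5′ to 3′ on the strand of the gene, from 100 bases before the annotated start to 20 bases from it, taken from RefSeq promoters of GRCm38.p6. Capitals mark the letters CCGGAAG, the core bound by ETS-family factors such as GABP, on either strand, and, from base 101 onward, a TOP tract where one is present. The first 5 had less H3K27ac coverage at 4% O2.

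Rpl31: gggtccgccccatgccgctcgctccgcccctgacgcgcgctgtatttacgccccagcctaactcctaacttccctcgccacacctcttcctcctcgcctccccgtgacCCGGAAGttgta

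Rps12: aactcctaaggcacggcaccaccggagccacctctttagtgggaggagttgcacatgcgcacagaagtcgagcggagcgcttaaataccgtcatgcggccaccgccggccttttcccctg

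Rpl14: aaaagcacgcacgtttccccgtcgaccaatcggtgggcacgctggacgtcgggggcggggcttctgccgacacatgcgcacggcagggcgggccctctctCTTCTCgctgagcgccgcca

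Rpl34: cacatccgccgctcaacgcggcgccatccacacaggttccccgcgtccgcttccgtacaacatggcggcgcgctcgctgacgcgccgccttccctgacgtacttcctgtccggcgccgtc

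Rpl37: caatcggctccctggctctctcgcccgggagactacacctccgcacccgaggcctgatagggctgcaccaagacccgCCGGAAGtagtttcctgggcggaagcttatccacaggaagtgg

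The next 2 had more H3K27ac coverage at 4% O2 over the same span, and Rpl38 combines both features in 1 promoter.

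Rps25: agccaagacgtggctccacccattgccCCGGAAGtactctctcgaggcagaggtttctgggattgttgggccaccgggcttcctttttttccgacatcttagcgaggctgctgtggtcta

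Rpl38: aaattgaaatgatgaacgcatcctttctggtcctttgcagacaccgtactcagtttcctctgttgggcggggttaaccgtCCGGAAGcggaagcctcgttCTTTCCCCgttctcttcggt

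The last is Rpl10l, a paralog of Rpl10 known for its role in the testis, which had no H3K4me3 peak in any library.

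Rpl10l: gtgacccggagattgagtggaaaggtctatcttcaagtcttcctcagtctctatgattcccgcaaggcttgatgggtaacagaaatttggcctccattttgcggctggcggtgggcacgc

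These stretches lie at chr1:39367751-39367870 on the plus strand (Rpl31), chr10:23787190-23787309 on the minus strand (Rps12), chr9:120571417-120571536 on the plus strand (Rpl14), chr3:130730379-130730498 on the minus strand (Rpl34), chr15:5116513-5116632 on the plus strand (Rpl37), chr9:44407614-44407733 on the plus strand (Rps25), chr11:114668480-114668599 on the plus strand (Rpl38) and chr12:66284382-66284501 on the minus strand (Rpl10l).

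RefSeq promoter entries of 300 bases, 250 before the start and 50 from it, were matched for 64 of the 84 genes. A TOP tract at the annotated base, a C followed by at least 4 more pyrimidines, was present in 13 of these 64 (20.3%), against 2.11% of 17428 other coding genes. The longest of these 13 tracts was that of Rpl15, at 13 bases. When the tract could begin up to 10 bases either side of the annotated start, 37 of the 64 had one, against 31.1% of the others, so the annotated base decides much of this count. CCGGAAG on either strand was present in 39.1% of the ribosomal protein promoters and in 11.8% of the others. A search for 9 further short motifs was made on both strands. The YY1 core AAGATGG was in 14.1% of the ribosomal protein promoters and in 6.34% of the others. The SP1 motif GGGCGG was in 59.4% of them and in 46.3% of the others, and the cAMP response core TGACGT in 18.8% of them and in 8.72% of the others. The E-box CACGTG was about equally common, in 7.81% of the ribosomal protein promoters and in 7.90% of the others. A CCAAT box was in 29.7% of them and in 39.1% of the others. A first form of the hypoxia response core, ACGTG, can overlap the E-box and the cAMP response core, and it was in 28.1% of the ribosomal protein promoters and in 20.7% of the others. The other form, GCGTG, was in 56.2% of them and in 38.3% of the others. A TATAAA box was in 10.9% of them and in 13.4% of the others, and the letters TTTAAG were in 17.2% of them and in 12.7% of the others. A match describes letters in the window and not a bound site. The other promoters were not matched for base composition or for presence of an active mark. H3K4me3 covered 50.2% and 50.4% of their first 1000 bp at 4% O2 (sets 1 and 2). In the ribosomal protein genes it covered 96.6% and 95.4%.

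The 84 genes had a median length of 3179 bp (592 to 11774 bp), against 17169 bp for all coding genes, and 30 of them hosted 59 small nucleolar RNA genes. Another coding gene lay within 10 kb of 74 of the 84, so a window of the gene and its flanks often holds a neighbour's promoter, and 12 genes were overlapped by another coding gene. Ribosomal protein genes also have many processed pseudogenes, so how short reads were divided between near-identical copies is uncertain. The share of a gene, or of its window, covered by peaks was the measure throughout. For each gene the groups were called non-overlapping, "lower" or "higher", when both 4% O2 libraries lay below or above both 20% O2 libraries. This is a description without a p-value, since 2 libraries against 2 cannot give an exact permutation p below 0.333. Coverage of a pool of cells does not tell fewer cells with a mark from a weaker mark in each cell.

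The libraries differed in how much they covered. Over the genome, H3K4me3 peaks covered 48.2 and 54.3 Mb at 4% O2 (sets 1 and 2) and 56.1 and 49.7 Mb at 20% O2. H3K27ac covered 56.9 and 75.2 Mb at 4% O2 and 59.6 and 65.4 Mb at 20% O2, and H3K4me1 covered 61.0 and 63.8 Mb at 4% O2 and 105.9 and 81.8 Mb at 20% O2. Set 2 was run on 1 flow cell. Its H3K4me3 and H3K4me1 libraries were on lane 6 at 4% O2 and on lane 7 at 20% O2, so for these marks oxygen and lane cannot be told apart. The set 1 H3K4me1 libraries shared a flow cell, on lane 2 at 4% O2 and on lane 1 at 20% O2. The other set 1 libraries were on a different flow cell at 4% O2 from that at 20% O2, so oxygen and flow cell cannot be told apart there. Of 16 markers of noradrenergic neuroblastoma, 14 carried H3K4me3 in the gene body in all 4 libraries, and for glia, immune cells, endothelium, and liver or muscle the counts were 2 of 8, 1 of 8, 2 of 6 and 2 of 8.

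H3K27ac covered less of ribosomal protein genes at 4% O2 than at 20% O2, on the transcribed side of the start and in both sets. Among the 64 genes with a known strand, peaks covered 72.1% and 75.8% of the first 1000 bp after the start at 4% O2 (sets 1 and 2), against 85.8% and 86.2% at 20% O2. The same stretch of the 17428 other coding genes was covered by 29.6% and 33.7% at 4% O2 and by 30.4% and 31.7% at 20% O2. In ribosomal protein genes the difference was therefore -13.7 points in set 1 and -10.4 points in set 2, while in the others it was -0.857 and 2.0 points. The groups did not overlap in 31 of the 64 genes (48.4%) in the direction of lower at 4% O2 and in 1 gene in the direction of higher. Over all 17492 genes with a start, 6.36% were lower and 8.26% were higher. A gene without a peak in this stretch in any library cannot be called in either direction. These shares are therefore not matched for presence of the mark, and the same holds for the shares beside the other stretches.

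From 1000 to 2000 bp after the start the covered share was 11.2% and 31.9% at 4% O2 and 25.0% and 45.8% at 20% O2, so the sets differed from each other more than the oxygen levels did. Within each set it was lower by a similar amount, -13.8 and -13.9 points. In this stretch 17 of the 64 genes were lower (1.69% of all genes) and 3 were higher (5.43%). Leaving out the 4% O2 set 1 library brought the difference to -3.49 points and leaving out the 20% O2 set 2 library to -3.47. Without the 4% O2 set 2 or the 20% O2 set 1 library it was -24.2, with 40 and 37 genes lower. On the upstream side, from 2000 bp before the start, the covered shares of 30.1% and 33.5% at 4% O2 lay around those of 31.5% and 32.3% at 20% O2. There 9 of the 64 genes were lower (3.83% of the other coding genes) and 6 were higher (12.3%).

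**Figure D1:**
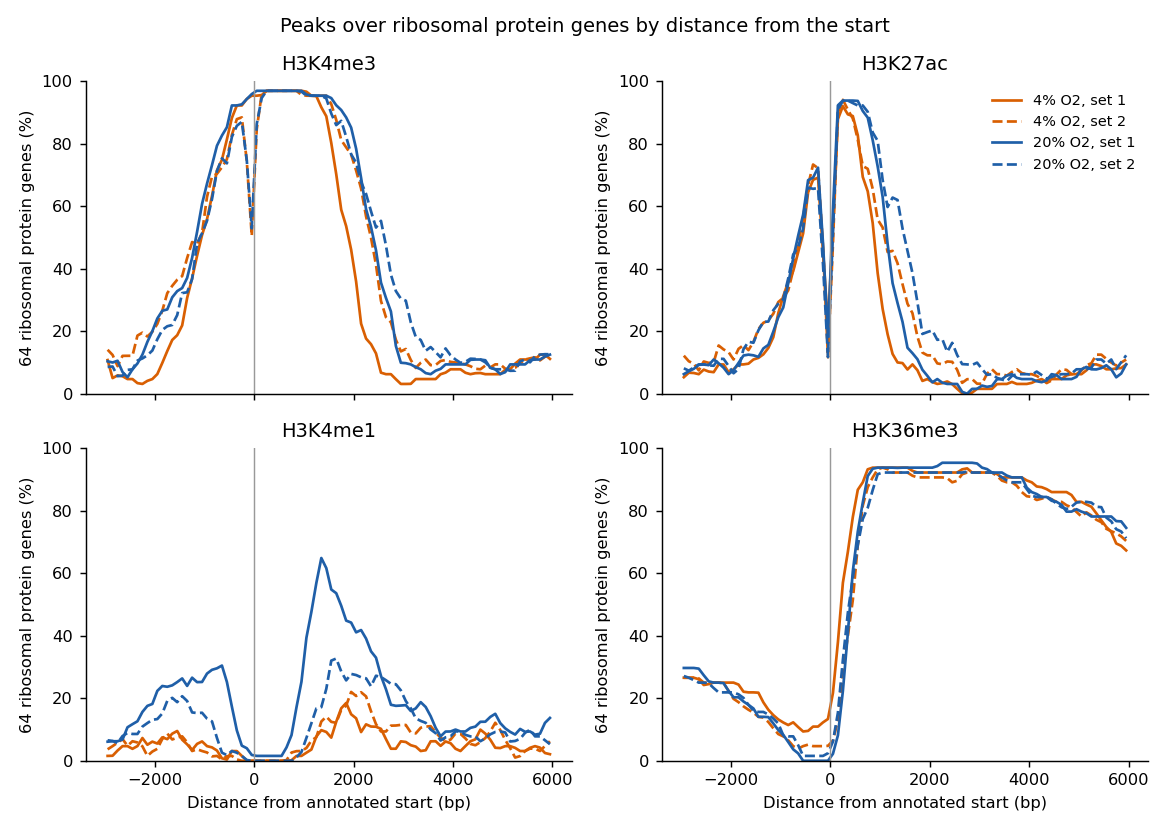
Share of the 64 strand-matched ribosomal protein genes (y axis, %) covered by a peak in each 100 bp step from 3000 bp before to 6000 bp after the annotated start (x axis, bp), for 4 marks. Solid lines are set 1 and dashed lines set 2, orange for 4% O2 and blue for 20% O2. The orange H3K27ac lines leave the plateau closer to the start than the blue lines of the same set, and H3K36me3 coverage climbs over the first 1000 bp.

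The far end of the H3K27ac peak at the start gave the same picture in base pairs. Among 59 ribosomal protein genes with such a peak in all 4 libraries, its median reach past the start was 853 and 980 bp at 4% O2 and 1122 and 1209 bp at 20% O2. The end lay nearer to the start at 4% O2 in 27 genes (12.9% of all genes measured this way) and farther in 3 (21.7%). For the 6638 other genes the medians were 782 and 860 bp at 4% O2 and 784 and 778 bp at 20% O2. The upstream end of the peak reached less far at 4% O2 in 14 of the 59 genes (13.3% of all genes) and farther in 0 (18.5%). Its median shift was small, at -3 bp in set 1 and -5 bp in set 2.

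Rps12, a small-subunit protein gene at chr10:23785183-23787383 that hosts 3 small nucleolar RNA genes, showed the widest gap. H3K27ac covered 30.2% and 40.3% of its first 1000 bp at 4% O2, against 98.7% and 100% at 20% O2. Its peak ended 341 and 460 bp into the gene at 4% O2, and 1181 and 1367 bp into it at 20% O2. Rps21, another small-subunit gene, followed with 46.1% and 29.1% at 4% O2 and 99.2% and 94.3% at 20% O2. Rpl34, of the large subunit, had 35.6% and 42.7% at 4% O2 and 94.7% and 91.6% at 20% O2. In all 3 the libraries of each group stood close together beside the gap between the groups. These genes and Rps6 were singled out here after their values in this stretch were seen.

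Rps6 encodes the subunit protein phosphorylated by S6 kinase downstream of mTOR, and its promoter has a TOP tract of 9 bases. It had 64.8% and 68.4% at 4% O2 and 93.0% and 97.3% at 20% O2. Rpsa, which also serves as a laminin receptor precursor, had 82.0% and 35.4% at 4% O2 and 96.7% and 95% at 20% O2, and there the 4% O2 libraries were far apart. Rpl31 and Rpl37, of the large subunit, stood at 81.7% and 74.7% and at 83.7% and 82.3% at 4% O2, against 94.9% and 95.4% and 96.4% and 95.4% at 20% O2. The Rpl31 peak ended 885 and 630 bp into the gene at 4% O2 and 1803 and 2474 bp into it at 20% O2.

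A TOP start was present in 7 of the 31 genes that were lower in the first 1000 bp and in 6 of the other 33. CCGGAAG was present in 14 of the 31 and in 11 of the 33, and the ACGTG core in 5 of the 31 and in 13 of the 33. The other features searched were counted in the same way, in the 31 and in the 33. AAGATGG was in 2 and 7, TTTAAG in 3 and 8, and GCGTG in 15 and 21. GGGCGG was in 21 and 17, TGACGT in 6 and 6, and CACGTG in 2 and 3. CCAAT was in 10 and 9, TATAAA in 3 and 4, and a TOP tract within 10 bases of the start in 20 and 17. No test was made of these counts.

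Rpl3l was the gene in the opposite direction. It is a paralog of Rpl3 known from heart and skeletal muscle, and it lies at chr17:24727826-24736143, a few kilobases from the end of Rps2. H3K27ac covered 46.6% and 42.2% of its first 1000 bp at 4% O2, while no peak lay there in either 20% O2 library. Over the whole gene it covered 17.7% and 22.9% at 4% O2 and 3.40% and 5.15% at 20% O2. H3K36me3 was listed at 0 in its body in all 4 libraries.

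Over whole gene bodies, H3K27ac covered 30.0% and 38.9% at 4% O2 and 39.3% and 48.8% at 20% O2, a difference of -9.22 points in set 1 and -9.92 in set 2. It was lower in 33 of 84 genes (5.58% of all coding genes) and higher in 2 (12.6%), namely Rpl3l and Rpl12. Among the 80 ribosomal protein genes with the mark in the body in all 4 libraries, 32 were lower and 2 higher, where 9.19% and 23.8% of all coding genes with the mark in all 4 were lower and higher. Without the 4% O2 set 2 library 66 genes would count as lower, and without the 20% O2 set 1 library 63. Without the 4% O2 set 1 library 15 would count as higher, and without the 20% O2 set 2 library 10. Over the windows of gene and flanks the shares were 11% and 14.6% at 4% O2 and 12.8% and 15.0% at 20% O2. In the windows 24 genes were lower (5% of all coding genes) and 6 higher (15.6%). The mean window difference of -1.09 points turned to 0.682 without the 4% O2 set 1 library and to 0.0356 without the 20% O2 set 2 library, so its direction rests on those. Counts of lower windows reached 55 without 4% O2 set 2 and 46 without 20% O2 set 1. Counts of higher windows reached 28 without 4% O2 set 1, 18 without 20% O2 set 2 and 10 without 20% O2 set 1.

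The 5 windows that ranked first as lower were those of Rpl31, Rps12, Rpl14, Rpl34 and Rpl37. The Rpl31 window had 16.3% and 17.4% at 4% O2 and 23.7% and 23.2% at 20% O2. Rpl34 had 3.78% and 3.84% at 4% O2 and 7.06% and 6.81% at 20% O2. In Rpl14 the window difference came from outside the gene, since its body was covered by 40.0% and 71.9% at 4% O2 and by 47.1% and 70.5% at 20% O2. The 5 that ranked first as higher were Rps25, Rpl41, Rpl38, Rpl39 and Rps3a1. Rps25 had 14.0% and 15.1% of its window covered at 4% O2 and 10.9% and 12.6% at 20% O2. Its gene body went the other way, with 21.1% and 17.6% at 4% O2 and 25.4% and 25.9% at 20% O2.

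**Figure D2:**
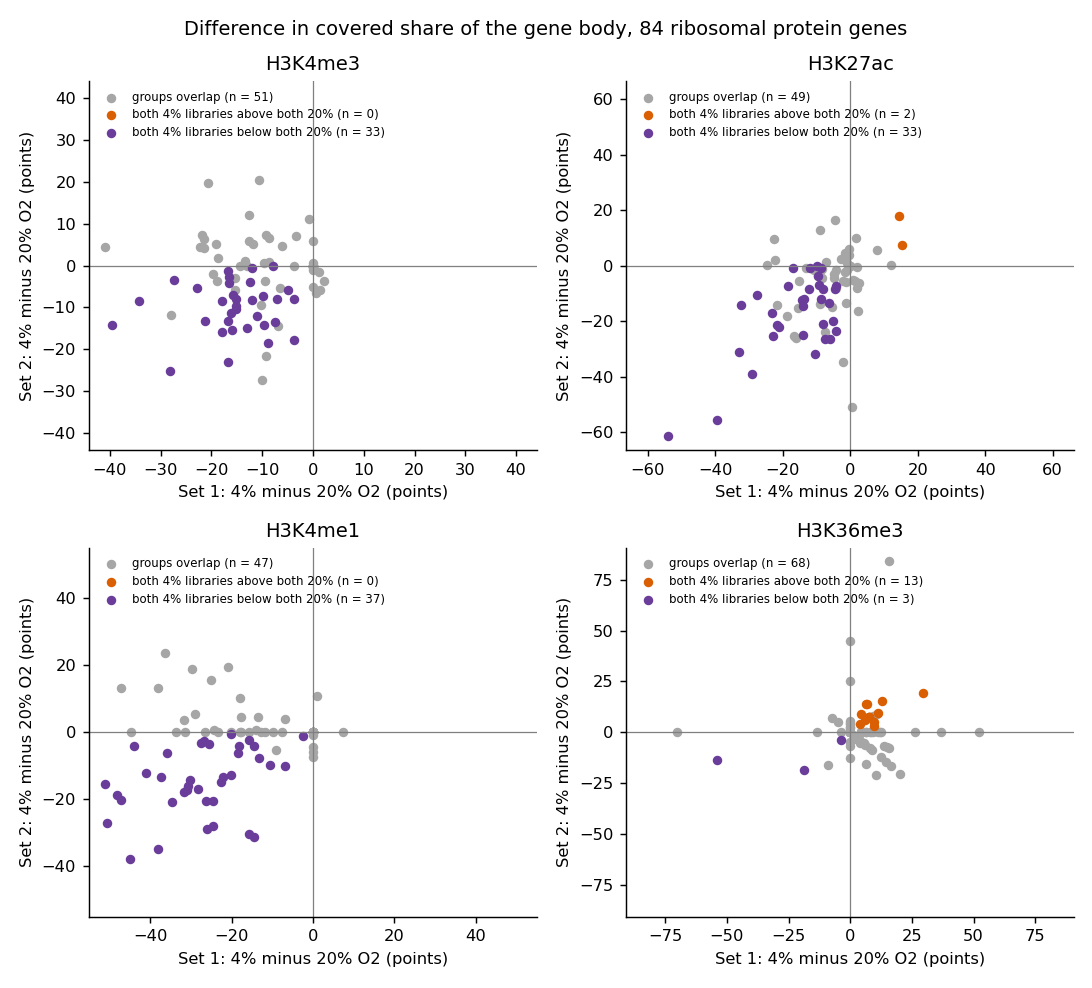
Each point is 1 of the 84 ribosomal protein genes, placed by the 4% minus 20% O2 difference in covered share of the gene body in set 1 (x axis, percentage points) and in set 2 (y axis, percentage points), for 4 marks. Colours mark genes whose groups do not overlap. For H3K27ac most points lie below 0 in both sets, with Rps21 and Rps12 at the far end, and for H3K4me3 more points lie below 0 in set 1 than in set 2.

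H3K4me3 covered nearly all of the start at both oxygen levels and less at 4% O2 farther downstream. It covered 96.6% and 95.4% of the first 1000 bp at 4% O2 and 96.9% and 95.6% at 20% O2, and no ribosomal protein gene had non-overlapping groups there. From 2000 to 4000 bp the shares were 9.11% and 24.8% at 4% O2 and 25.3% and 34.5% at 20% O2. The median length of the 84 genes was 3179 bp, so this stretch often runs past the end of the gene. In this stretch 19 of 64 genes were lower (6.61% of all genes) and 0 were higher (0.932%). Other coding genes had 5.33% and 10.3% at 4% O2 and 9.26% and 9.33% at 20% O2.

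The far end of the H3K4me3 peak lay a median of 1917 and 2217 bp past the start at 4% O2 and 2381 and 2377 bp past it at 20% O2, over 62 genes. In short genes this end can lie beyond the gene. It was nearer at 4% O2 in 27 of them (22.2% of all genes) and farther in 0 (5.09%). The median shift of this end was -471 bp in set 1 and -95 bp in set 2. Other genes moved by -264 bp in set 1 and by 41 bp in set 2, so the set 1 libraries differed in the same direction over the genome. H3K4me3 peaks were also more broken up in set 2, with a median width of 646 bp at 4% O2 and 552 bp at 20% O2, against 1553 bp at 4% O2 and 1618 bp at 20% O2 in set 1.

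Over gene bodies H3K4me3 covered 60.7% and 70.8% at 4% O2 and 72.4% and 74.6% at 20% O2. It was lower in 33 of 84 genes (12% of all coding genes) and higher in 0 (3.45%). Of 82 ribosomal protein genes with the mark in all 4 libraries, the same 33 counted as lower, against 19.6% of all coding genes with the mark in all 4, of which 5.61% were higher. Without the 4% O2 set 2 library 64 genes would count as lower, and 12 would count as higher without the 4% O2 set 1 library and 5 without 20% O2 set 1. Windows gave 33 lower genes (11.2%) and 0 higher (3.08%), from covered shares of 18.5% and 21.9% at 4% O2 and 22.7% and 21.8% at 20% O2. Lower windows reached 72 without 4% O2 set 2 and 53 without 20% O2 set 2, and higher ones 18 without 4% O2 set 1 and 8 without 20% O2 set 1.

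Rps4x, the X-linked small-subunit gene at chrX:102184941-102189391, ranked first. Its window was covered by 13.4% and 13.9% at 4% O2 and by 18.7% and 18.5% at 20% O2. H3K4me3 covered 56.1% and 62.4% of its body at 4% O2 and 72.9% and 85.6% at 20% O2. Rpl24, Rps18, Rpl15 and Rpl10a came next. The Rpl24 window had 25.5% and 26.8% at 4% O2 and 31.3% and 31.0% at 20% O2. Rpl15 had 78.4% and 72.8% of its body covered at 4% O2 and 86.0% and 86.2% at 20% O2, and Rpl10a had 84.9% and 89.6% at 4% O2 and 100% in both libraries at 20% O2. In Rps18 the body groups overlapped, at 56.3% and 56.9% at 4% O2 and 54.2% and 60.7% at 20% O2, so its window difference lay outside the gene.

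By base pairs covered within the gene body, Rpl19, Rps24 and Rpl18 had the most H3K4me3, with means over the 4 libraries of 5446, 4595 and 4480 bp. Rps27, Rpl39l and Rpl41 had the least among genes with any, at 982, 1006 and 1059 bp. Rps27 and Rpl41 are short enough for H3K4me3 to have covered them whole in all 4 libraries. For these genes the values are therefore the gene lengths and not the widths of the peaks. In the 4% O2 set 1 library the Rpl41 peak reached from 847 bp before the start to 2806 bp past it.

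**Figure D3:**
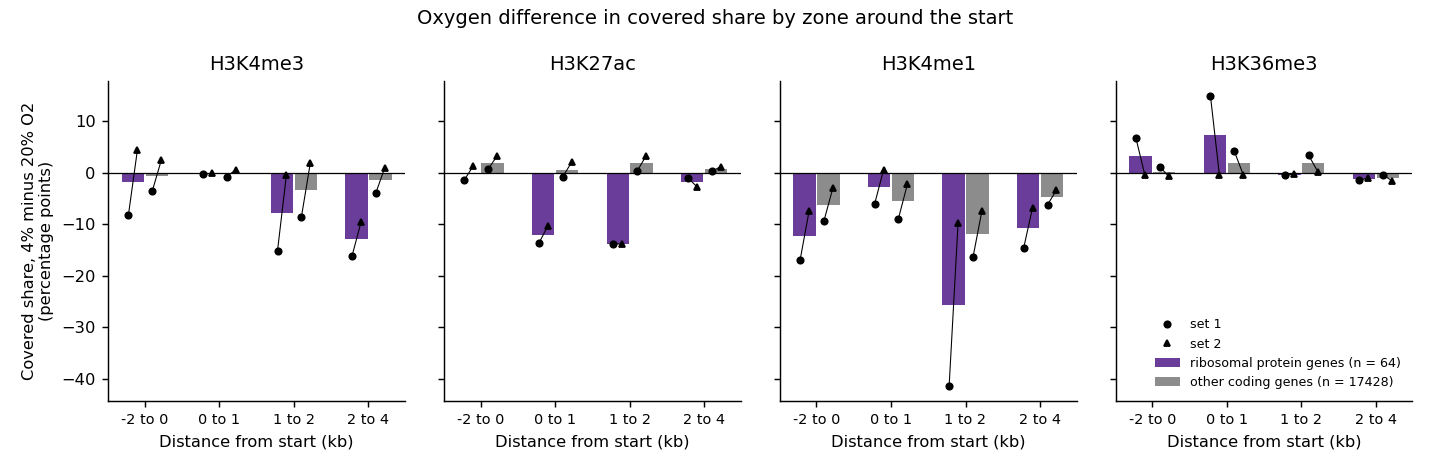
Difference in covered share between 4% and 20% O2 (y axis, percentage points) in 4 stretches around the annotated start (x axis, kb), for 64 ribosomal protein genes in purple and 17428 other coding genes in grey. Bars are means of the sets, circles set 1 and triangles set 2. In H3K27ac from 0 to 2 kb the purple bars lie below 0 in both sets and the grey bars do not, while the long H3K4me1 bars have a wide gap between the sets.

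H3K4me1 was lower around ribosomal protein genes at 4% O2, as it was over the genome. Windows had 3.58% and 4.10% covered at 4% O2 and 12.3% and 7.46% at 20% O2. Lower windows numbered 53 (41.1% of all coding genes) and higher ones 1 (0.187%), and in gene bodies 37 were lower (29.7%; 64 without 20% O2 set 2) and 0 higher (0.247%; 5 without 20% O2 set 1). Only 26 ribosomal protein genes had the mark in the body in all 4 libraries, and 19 of them were lower, beside 60.5% of all such genes, of which 0.527% were higher. The mark flanked the start and was nearly absent from it, with 0.328% and 0.906% of the first 1000 bp covered at 4% O2 and 6.43% and 0.389% at 20% O2. From 1000 to 2000 bp it covered 10.3% and 12.5% at 4% O2 and 51.7% and 22.3% at 20% O2, and 25 genes were lower (19%) and 0 higher (0.131%). Most of that gap was in set 1, at -41.4 points, against -9.77 in set 2.

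Rpl7a had 5.74% and 5.77% of its window covered by H3K4me1 at 4% O2 and 28.7% and 19.6% at 20% O2. Rps10 had 4.72% and 3.54% at 4% O2 and 28.4% and 18.2% at 20% O2. Rpl35 and Rps15 were also among the first 5. In Rpl7a no H3K4me1 peak lay in the body in either 4% O2 library. The 1 window that was higher belonged to Rpl32l, a gene of 592 bp inside Map7, with 5.34% and 7.71% at 4% O2 and 5.13% and 3.52% at 20% O2.

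H3K36me3 covered most of the gene bodies at both oxygen levels. It covered 85.4% and 79.1% of the bodies at 4% O2 and 80.9% and 78.2% at 20% O2, with 13 genes higher (6.56% of all coding genes) and 3 lower (8.34%). Island ends move in steps of 200 bp, so in these short genes a shift of that size can be enough for a call. In Rps24, called higher, the smallest difference between a 4% and a 20% O2 library was 3.18 points of 6283 bp. Of the 79 ribosomal protein genes with the mark in all 4 libraries, 13 were higher (16.5%) and 3 lower (3.8%). Over all such coding genes the shares were 14% higher and 14.6% lower. Without the 4% O2 set 1 library the body difference of 2.73 points became -0.398, and 41 genes would count as higher without 4% O2 set 2, 24 without 20% O2 set 1 and 20 without 20% O2 set 2. Lower bodies reached 15 without 4% O2 set 1, 8 without 20% O2 set 2 and 7 without 20% O2 set 1. Windows had 51.8% and 48.7% at 4% O2 and 51.5% and 52.2% at 20% O2, a difference of 0.264 points in set 1 and -3.49 in set 2, with 11 higher (6.04%) and 15 lower (12.9%). The mean window difference of -1.61 points was -0.0833 without 4% O2 set 2 and -3.14 without 4% O2 set 1. Leaving out any 1 library gave 19 to 32 higher windows and 25 to 34 lower ones.

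The near end of H3K36me3 lay closer to the start in 1 set. In the first 1000 bp it covered 71.8% and 56.1% at 4% O2 and 56.8% and 56.5% at 20% O2, with 9 of 64 genes higher (3.85%) and 2 lower (1.25%). The mean difference was 14.9 points in set 1 and -0.395 in set 2. Rpl10a is an example of a body that was higher in both sets, with 100% and 94.9% at 4% O2 and 87.1% and 79.3% at 20% O2. Rps24, whose loss of function causes Diamond-Blackfan anaemia in humans as does that of several other ribosomal protein genes, had 98.0% and 91.7% at 4% O2 and 88.5% in both 20% O2 libraries. Rpl26, a large-subunit protein that also binds p53 mRNA, had 44.9% and 58.4% at 4% O2 and 98.8% and 71.9% at 20% O2.

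Among windows, the first to rank as higher were Rps2, Rpl21, Rps24, Rpl8 and Rpl39. Rps2 had 42.0% in both 4% O2 libraries and 31.1% and 31.9% at 20% O2. Rpl27a, Rpl26 and Rplp0 were among the first as lower. Rpl27a had 28.5% and 26.8% of its window covered at 4% O2 and 35.4% and 36.2% at 20% O2, although its body had 93.5% in both 4% O2 libraries and 87.2% and 93.5% at 20% O2.

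Read counts were available for H3K36me3 islands, so read density within covered sequence could be tested. By edgeR's quasi-likelihood test with Benjamini-Hochberg adjustment, 0 of 10858 regions (0% higher and 0% lower) passed an adjusted p of 0.05, and 984 had an unadjusted p under 0.05 while DESeq2 called 2. Without 1 library edgeR called 0 to 30 regions higher and 0 to 4 lower, none of them over a ribosomal protein gene. Of these regions 79 overlapped a ribosomal protein gene, and 0 passed. Their median log2 difference was 0.05, against 0.03 for all regions, and its direction rested on single libraries. It was -0.10 without 4% O2 set 1, -0.01 without 20% O2 set 2, 0.17 without 4% O2 set 2 and 0.12 without 20% O2 set 1. The region of Rpl26 (chr11:68901601-68909400) had 2.21 and 2.39 reads at 4% O2 and 1.93 and 1.57 at 20% O2, per kb of covered sequence and 1e6 island reads. The island counts behind these values were 165 and 191 reads at 4% O2 and 299 and 147 reads at 20% O2. Its log2 difference was 0.36 with an adjusted p of 0.548 by edgeR, and the covered fraction of the region was as low as 0.615 in 1 library.

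H3K27me3 was nearly absent from ribosomal protein genes. It was absent from the body of 81 of the 84 in all 4 libraries, and from the window of 71. Windows were covered by 5.01% and 3.26% at 4% O2 and by 3.41% and 2.68% at 20% O2, against 14.1% and 12.6% at 4% O2 and 11.7% and 12.8% at 20% O2 for all coding genes. The windows of 3 genes were higher (8.15%) and of 0 lower (1.83%). Higher windows numbered 10 without 4% O2 set 2 and 6 without 20% O2 set 2. They were Rpl29, with 34.0% and 24.3% at 4% O2 and 0% and 4.90% at 20% O2, then Rpl6 and Rpl17. In Rpl29 and Rpl6 no H3K27me3 lay in the body, so the mark was in the flanks.

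The 3 genes with H3K27me3 in the body were Rpl17, Rpl38 and Rpl36a. Rpl17 had 27.8% and 23.2% at 4% O2 and 9.60% and 5.06% at 20% O2. The merged Rpl17 region was 15400 bp long, lay mostly outside the gene and reached into an end of it. Over the Rpl17 window the shares were 46.0% and 45.2% at 4% O2 and 42.7% and 41.9% at 20% O2. Rpl38, whose loss in mice alters the translation of Hox mRNAs, had 12.9% in both 4% O2 libraries and 4.05% in both 20% O2 libraries. The merged Rpl38 region ended at chr11:114668400, upstream of the stretch printed for this gene (chr11:114668480-114668599). The covered part of the annotated gene thus lay before the start used for that stretch. Rpl36a was split by set, with 100% and 0% at 4% O2 and 52.4% and 0% at 20% O2. Of the 10177 H3K27me3 regions tested by edgeR for read density, 0% were called higher and 0% lower. At an unadjusted p under 0.05 there were 400, DESeq2 called 0, and the regions of these 3 genes had an adjusted p of 0.999.

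Of the paralog genes, some carried little or none of the active marks. Rpl10l and Rpl32l carried none of H3K4me3, H3K27ac or H3K36me3 in the body in any library. Rpl39l, a paralog of Rpl39 known from the testis, had H3K4me3 over 23.6% and 18.9% of its body at 4% O2 and 22.4% and 20.5% at 20% O2, no H3K27ac in any library, and H3K36me3 in 1 library, 20% O2 set 1, at 70.2%. Rpl22l1, a paralog of Rpl22 with roles in blood cell development, was among the genes that were lower, with H3K27ac over 29.3% and 30.4% of its body at 4% O2 and 34.3% and 50.2% at 20% O2. Rps27l, which p53 induces, had 7.0% and 14.2% at 4% O2 and 19% and 15.0% at 20% O2. In Rpl7l1 the H3K27ac groups overlapped over the body, at 10.8% and 7.67% at 4% O2 and 12.3% and 9.83% at 20% O2. In the first 1000 bp after its start it was among the lower genes, with 66.1% and 67.1% at 4% O2 and 89.3% and 86% at 20% O2.

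Rpl5 and Rpl11, named here after their values were seen, encode proteins that with 5S ribosomal RNA bind MDM2 when ribosome assembly is disturbed. H3K4me3 covered 23.0% and 29.4% of the Rpl5 body at 4% O2 and 32.9% and 36.6% at 20% O2. It covered 54.7% and 69.2% of the Rpl11 body at 4% O2 and 70.5% and 84.5% at 20% O2.

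Genes of related function are given beside the ribosomal protein genes by their counts over gene bodies. Of 25 genes for translation factors and other TOP mRNAs, such as Eef1a1 and Tpt1, H3K27ac was lower in 6 and higher in 0, and H3K4me3 lower in 10 and higher in 0. Of 32 ribosome biogenesis genes, such as Ncl and Fbl, H3K27ac was lower in 9 and higher in 3, and H3K4me3 lower in 13 and higher in 0. Of 78 mitochondrial ribosomal protein genes, H3K27ac was lower in 19 and higher in 9, and H3K4me3 lower in 22 and higher in 2. Of 19 regulators of ribosome supply, such as Mtor and Larp1, H3K27ac was lower in 0 and higher in 6, and H3K4me3 lower in 2 and higher in 0. Over all coding genes 12.6% were higher in H3K27ac, and in H3K4me3 12% were lower and 3.45% higher. Lower H3K27ac thus made up 24%, 28.1%, 24.4% and 0% of these lists, beside 39.3% of the ribosomal protein genes and 5.58% of all coding genes. These shares are not matched for presence of the mark. The body carried H3K27ac in all 4 libraries in 25 of 25, 23 of 32, 60 of 78 and 18 of 19 listed genes. Of all coding genes with H3K27ac in all 4, 9.19% were lower and 23.8% higher. For H3K4me3 in all 4, these shares were 19.6% and 5.61%. The lists differ in gene length, and no test of the difference between them was made.

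**Figure D4:**
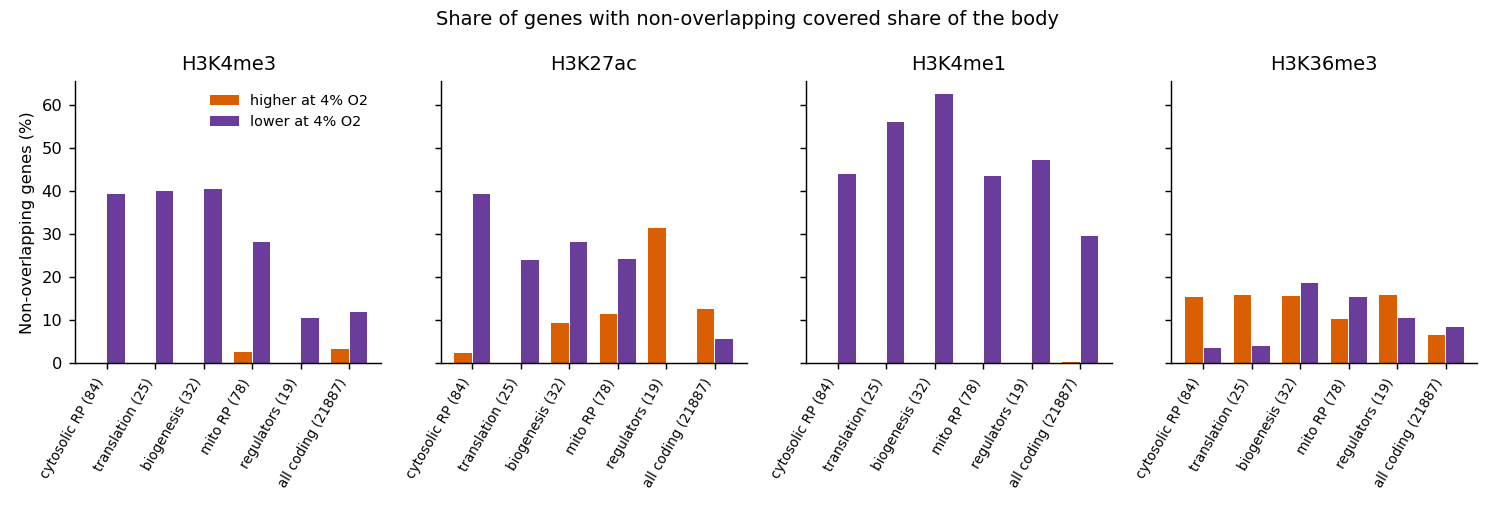
Percentage of genes whose groups do not overlap in covered share of the gene body (y axis), higher at 4% O2 in orange and lower in purple, for the ribosomal protein genes, 4 related lists and all coding genes (x axis, number of genes in brackets), by mark. Lower H3K4me3 reaches about the same height in ribosomal protein, translation and biogenesis genes, and the regulators are the list with higher and no lower H3K27ac.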

How the data were processed

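Peaks of H3K4me3, H3K27ac and H3K4me1 carry a score deposited by the authors, whose kind no header names, and islands of H3K36me3 and H3K27me3 carry whole-number read counts deposited by the authors. BWA, Picard, SICER and MACS2 on mm10 are named in the submitters' processing notes without versions or settings. Libraries were grouped by title, and 20 of the 24 samples, all but the inputs, had a list. Covered shares were computed per library from merged intervals with Python 3.11.15 over each gene and over the gene with 10000 bp either side. The island counts were summed over regions merged across the 4 libraries of a mark and tested with edgeR 4.0.16 (R 4.3.3), offset by library total times covered length, low counts filtered, and with DESeq2 1.42.0 as an alternative. The covered-length step was tested on made-up intervals and the edgeR fit on simulated counts that held no set effect. The peak ends and the motif search were not tested in this way. Library depth before peak calling is not given in the sources used here, island reads per library were 8479517 to 25048785, and the amount called limits precision.

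Genes named were, per mark and direction, up to 5 non-overlapping windows ranked by their smallest difference between a 4% and a 20% O2 library. Also named were genes without an H3K4me3 peak near them, genes with H3K27me3 in the body in at least 2 libraries, and paralogs. The 3 genes with the most and the 3 with the least H3K4me3 within the body were named too, and regions by p. Others were chosen after their values were seen. The genes and lists were chosen with earlier results of these data known, and the stretches around the start, peak ends, and gene sets with a mark in all 4 libraries after covered shares had been seen.
An earlier edgeR fit also had TMM factors in the offset, and its results had been seen before the offset was set back to the planned form. Flow cells were read from the track lines, per the file headers. Values of some genes that the rule names are not reported here.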

Additional observations from a re-analysis of the deposited data

How the results depend on the processing

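Over the first 1000 bp after the start, the H3K27ac difference kept its direction with equal peak numbers, with a score of at least 5 and without any 1 library, at -13.9 to -10.2 points, with 30 to 41 genes lower; these alternatives were chosen after seeing the data. From 1000 to 2000 bp, 19 to 40 genes were lower without 1 library. Using the gene body in place of the window moved the mean differences to -7.76 (H3K4me3), -9.57 (H3K27ac) and -12.4 points (H3K4me1), and that of H3K36me3 reversed to 2.73. Counts became 2 (H3K27ac higher), 0 (H3K4me1 higher) and 3 (H3K36me3 lower).

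Leaving out 1 library loosens the call for non-overlap by construction, so counts mostly grow. In windows they ran from 1 to 18 higher and 34 to 72 lower for H3K4me3, 7 to 28 and 28 to 55 for H3K27ac, 19 to 32 and 25 to 34 for H3K36me3, and 4 to 10 higher and 1 to 1 lower for H3K27me3, with 1 to 3 higher for H3K4me1. Window differences kept their sign but ran from -3.70 to -0.276 (H3K4me3), -8.44 to -3.62 (H3K4me1), -3.14 to -0.0833 (H3K36me3) and 0.211 to 1.96 (H3K27me3). The H3K27ac window difference ran from -2.86 to 0.682 and reversed without 4% O2 set 1 (0.682) and without 20% O2 set 2 (0.0356). In bodies they ran from 1 to 12 higher and 38 to 64 lower for H3K4me3, 2 to 15 and 36 to 66 for H3K27ac, 0 to 5 and 38 to 64 for H3K4me1, and 14 to 41 and 3 to 15 for H3K36me3, whose body difference ran from -0.398 to 5.85 and reversed without 4% O2 set 1 (-0.398). Body differences were otherwise -12.8 (without 4% O2 set 2) to -2.74 (without 4% O2 set 1) for H3K4me3, -14.3 (without 20% O2 set 1) to -4.81 (without 20% O2 set 2) for H3K27ac, and -17.8 (without 20% O2 set 2) to -6.92 (without 20% O2 set 1) for H3K4me1.

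With the set as a replicate block, edgeR called 690 H3K36me3 regions higher and 357 lower of 10858, 1 of them over a ribosomal protein gene. With TMM factors added to that offset, an alternative run after seeing the data, the replicate block gave 4. Without the covered-length offset, the replicate block called 0 regions higher and 0 lower, with 1853 at an unadjusted p under 0.05. The deviations of same-numbered libraries correlated at 0.5 for H3K36me3 and 0.435 for H3K27me3, but the labels do not say that a number marks a shared culture, so the pairing is a hint only. The filter on low counts removed no region. TOP starts numbered 37 when the tract could begin within 10 bases. With 2 libraries a group, covered shares depend on where each list's threshold fell, and reads below it are not seen.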
